A study of Mus musculus with 6 samples.

Results

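The 10 genes described here encode, for the most part, plasma membrane and lysosomal carriers of glutamine, alanine, serine and other small neutral amino acids. They are the SLC38 family genes Slc38a1, Slc38a2, Slc38a3, Slc38a5, Slc38a7, Slc38a9 and Slc38a10, the SLC1 exchangers Slc1a4 and Slc1a5, and the SLC7 light chain Slc7a10. They were chosen by family and substrate, from 52550 gene identifiers counted in each library, and all 10 had enough reads to be tested. The libraries hold polyadenylated RNA of 1 cortical hemisphere each, from C57BL6/J pups at postnatal day 2. Controls (n = 3) were Slc7a5fl/fl; Emx1Cre- and knockouts (n = 3) were Slc7a5fl/fl; Emx1Cre+, so both genotypes carry the floxed alleles and only the knockouts carry Cre. The titles letter the libraries A, B and C within each genotype, and where 3 values of a genotype are listed they stand in that order. Cre under Emx1 control acts in the progenitors of dorsal forebrain excitatory neurons and glia, and spares blood vessels, microglia and most cortical interneurons, so those cells keep Slc7a5. The question is whether these other neutral carriers differ when LAT1, the large neutral amino acid exchanger whose light chain Slc7a5 encodes, is deleted from that lineage.

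System A carriers (Slc38a1 and Slc38a2) bring glutamine and alanine into cells together with sodium, and neurons use that glutamine to make glutamate and GABA. System N carriers (Slc38a3 and Slc38a5) move glutamine in either direction and are known from astrocytes and brain vessels. The exchangers ASCT1 (Slc1a4), ASCT2 (Slc1a5) and Asc-1 (Slc7a10) trade alanine, serine, cysteine, glycine or D-serine across the membrane. Glutamine taken up by such carriers can in turn be exchanged for leucine by LAT1, which links both groups of transporters. Several of these genes, among them Slc38a2, Slc1a4 and Slc1a5, are known targets of ATF4, the transcription factor that answers amino acid shortage.

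ATF4 binds with a C/EBP partner to a composite element whose core is TGATGNAA, and the RefSeq promoter windows (GRCm38.p6, 250 bases before to 50 after the start) were searched for those 8 letters on both strands. Of the 7 carrier genes with a window, 1 held the core, Slc1a4, against 3.97% of 32851 windows of all genes. Among the other ATF4 targets listed for this comparison, 10 of 32 windows (31.25%) held it. They belong to 10 of the 26 genes with a window, including Asns, Chac1 and Trib3. A match describes letters only, and a window without one says nothing about ATF4. The stretches from 100 bases before to 20 after the start are shown for Slc1a4 (chr11:20332694-20332813, minus strand) and, as the system A gene without the core in its window, Slc38a2 (chr15:96699709-96699828, minus strand). They are written 5′ to 3′ along the transcript with the core in capitals, which in Slc1a4 lies on the opposite strand and begins 4 bases before the start.

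Slc1a4: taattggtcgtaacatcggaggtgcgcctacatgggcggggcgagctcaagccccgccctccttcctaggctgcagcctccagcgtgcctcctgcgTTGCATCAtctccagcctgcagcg
Slc38a2: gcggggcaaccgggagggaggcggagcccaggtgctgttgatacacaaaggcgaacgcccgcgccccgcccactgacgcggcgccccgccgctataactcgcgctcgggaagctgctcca

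The libraries held 8249436 to 10372582 reads assigned to genes. The deleted gene Slc7a5 stood at 20.2, 40.7 and 26.1 CPM (read counts scaled to library depth with TMM factors) in the controls and at 15.6, 9.37 and 11.4 CPM in the knockouts. Its groups did not overlap, and its log2 change of -1.25 ± 0.28 (SE) did not pass edgeR's test over all genes (adjusted p = 0.40). Among 14913 genes tested, 5 passed at an adjusted p under 0.05, which is 0.0335%, and 126 passed with the letter as a block, which is 0.845%. Cortical neurons were plain in every library, with the excitatory neuron markers at a summed 4390 to 4789 CPM in controls and 3856 to 4382 CPM in knockouts. Ttr, a choroid plexus gene, reached 144 CPM in control B and at most 27.2 CPM in the other libraries. Reads outside exons of the counted strand made up 26.5, 22.5 and 23.0% in the controls and 27.4, 27.9 and 27.8% in the knockouts. That share was higher in every knockout, and the part of this difference in any result was not tested. Both libraries of letter B expressed Xist (918 and 961 CPM) and the others had at most 2.95 CPM. In whole tissue, fewer cells of a type and less RNA per cell cannot be told apart.

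No carrier gene passed the test of a difference between genotypes. In edgeR's quasi-likelihood test 0 of 10 passed over all genes, with adjusted p from 0.761 (Slc7a10) to 1.0 (Slc1a5), and 0 had an unadjusted p under 0.05, against 7.00% of all genes tested. DESeq2 also called 0, against 0.216% of the 11553 genes to which it gave an adjusted p. It gave 0 of the 10 an unadjusted p under 0.05, against 3.06% of 25648 genes. That set is wider than edgeR's 14913 because it was not filtered on low counts, so this share and edgeR's are not alike. With the letter as a block edgeR called 0, with 1 (Slc7a10) at an unadjusted p under 0.05, against 11.9% of all genes tested. The estimates were split evenly, with 5 above and 5 below 0 and a median log2 change of 0.014, beside 0.0011 for all genes tested. Their median size without regard to sign was 0.095, and 0.13 over all genes. For 9 of 10 genes the 95% interval of the change lay within 1.5-fold in either direction. The exception was Slc7a10, whose interval reached a knockout level of 0.498 times that of controls. The interval of Slc1a5 only just lay inside, from 0.669 to 1.493 times the level of controls, with a knockout CV of 37.8%. A test that is not passed does not show equal levels. These 95% intervals rest on the fit without the letter, which shares its estimate of spread between genes, and are no bound on what is possible.

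Levels were compared between genes only per length, as CPM per kilobase of the union of a gene's annotated exons, averaged over the 6 libraries. Slc38a2 (21.3 ± 2.60, SD, n = 6), Slc1a4 (20.7 ± 2.25), Slc38a10 (17.04 ± 1.17) and Slc38a1 (14.8 ± 0.542) formed the upper group. Together with the others they gave a summed level of which Slc38a2 made up 22.2% and Slc1a4 21.5%. Slc38a5 (5.53 ± 1.06), Slc38a7 (5.46 ± 0.436) and Slc38a3 (4.66 ± 0.335) stood in the middle, 2.67-fold under Slc38a1 at the step between both groups. Slc7a10 (2.98 ± 0.791), Slc38a9 (2.35 ± 0.199) and Slc1a5 (1.36 ± 0.329) were lowest. Neighbours whose ranges overlapped were Slc38a2 and Slc1a4, Slc1a4 and Slc38a10, Slc38a5 and Slc38a7, Slc38a7 and Slc38a3, and Slc7a10 and Slc38a9. Slc38a2 was above Slc1a4 in only 4 of 6 libraries, and Slc38a5 above Slc38a7 in 4 of 6.

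The order depended on the length used. With the longest protein-coding transcript in place of the exon union, Slc38a1 stood in the second place instead of the fourth at 35.1 CPM per kilobase, behind Slc38a2 at 40.4, and Slc1a4 was the fourth at 20.7. The exon union of Slc38a1 measures 17236 bases and its longest coding transcript 7266 bases, and for Slc38a9 the values are 16704 and 8910 bases. The 4 genes that kept their place were Slc38a2, Slc38a10, Slc38a7 and Slc1a5. Slc38a2, Slc1a4, Slc38a10 and Slc38a1 were the upper 4 genes with both lengths.

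**Figure D1:**
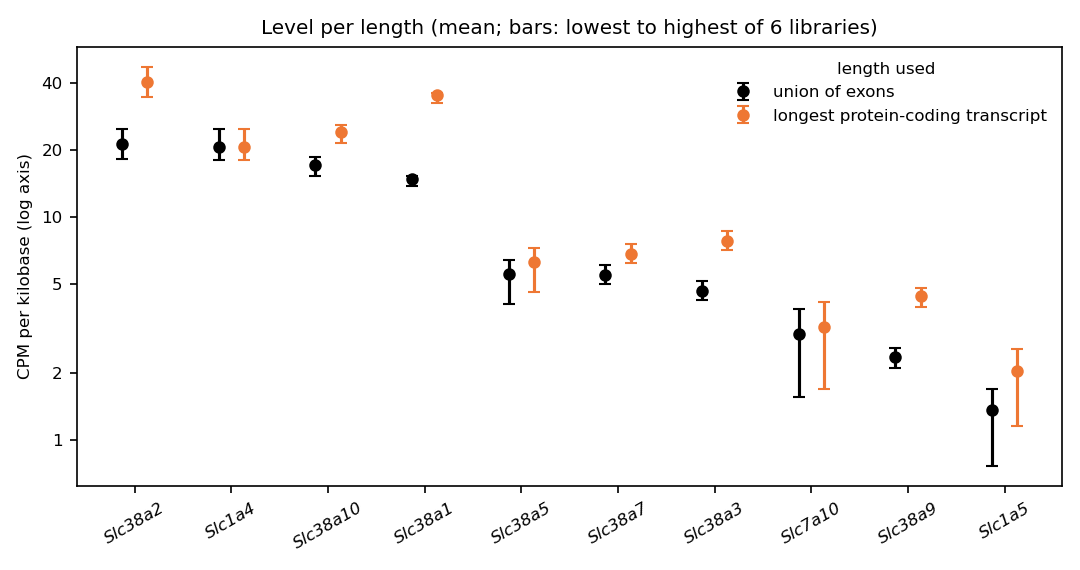
Level per length of each carrier gene, in CPM per kilobase on a log axis, as the mean of 6 libraries with bars from the lowest to the highest library. Black points divide by the union of exons and orange points by the longest protein-coding transcript; Slc38a2, Slc1a4, Slc38a10 and Slc38a1 stand above the other 6 genes with both.

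Slc38a1 (ENSMUSG00000023169, GRCm38 chromosome 15 from 96571418 to 96642913, minus strand) encodes SNAT1, a system A carrier known from GABAergic and other neurons. It had the most reads of the 10 genes, at 237, 254 and 260 CPM in the controls and 262, 257 and 259 CPM in the knockouts. The groups overlapped. The controls varied by 4.83% (CV) and the knockouts by 0.95%, the latter below the 2.02% that counting alone gives. The log2 change was 0.053 ± 0.098 (SE), with a 95% interval from -0.15 to 0.26 and an adjusted p of 0.947.

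Slc38a2 (ENSMUSG00000022462, chromosome 15 from 96687392 to 96699730, minus strand) encodes SNAT2, the system A carrier that cells are known to induce when amino acids run short. Its levels were 160, 178 and 190 CPM in the controls and 171, 219 and 210 CPM in the knockouts. Each knockout was above the control of its letter, by 0.092, 0.30 and 0.14 on the log2 scale, while the groups overlapped because knockout A lay below controls B and C. The change of 0.18 ± 0.12 (SE, interval -0.064 to 0.43, adjusted p = 0.808) did not pass, nor did it in the fit that blocks on the letter, where the adjusted p was 0.456. Its size ranged from 0.11 without knockout B to 0.28 without knockout A. Slc38a2 and Slc38a7 were the only ones of the 10 carrier genes whose 3 within-letter differences had the same sign. The share of all genes with such agreement was not counted, so the agreement is no sign of a difference. For Slc38a7 it follows from groups that do not overlap.

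Slc38a3 (ENSMUSG00000010064, chromosome 9 from 107650634 to 107669530, minus strand) encodes SNAT3, the system N carrier through which astrocytes release glutamine. Controls A, B and C held 23.2, 25.8 and 24.1 CPM and the knockouts held 22.3, 27.2 and 24.9 CPM. The range of the knockouts enclosed that of the controls, and the change was 0.029 ± 0.13 (SE, interval -0.25 to 0.31, adjusted p = 0.983). Slc38a5 (ENSMUSG00000031170, chromosome X from 8271133 to 8280179, plus strand) encodes SNAT5, the other system N carrier. It was at 13.5, 14.4 and 9.57 CPM in the controls and at 13.8, 14 and 9.14 CPM in the knockouts. Letter C was low in both genotypes, and the difference between knockout and control within a letter was at most 0.066 in size on the log2 scale. Across genotypes the change was -0.014 ± 0.20 (SE, interval -0.44 to 0.41, adjusted p = 0.996).

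Slc38a7 (ENSMUSG00000036534, chromosome 8 from 95835920 to 95853539, minus strand) encodes SNAT7, which exports glutamine and asparagine from lysosomes. Its levels were 24.1, 25.2 and 23.3 CPM in the controls and 21.1, 20.8 and 21.4 CPM in the knockouts. It was the only one of the 10 genes whose groups did not overlap, with every knockout below every control, a pattern that 6.28% of all genes tested showed in this direction and 5.89% in the other. The change of -0.20 ± 0.13 (SE, interval -0.46 to 0.071) did not pass (adjusted p = 0.808). With 203 to 239 reads per library, counting alone gives a CV of 6.78%, more than the 3.87% and 1.49% seen among controls and knockouts, so a spread this small was below the counting error.

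Slc38a9 (ENSMUSG00000047789, chromosome 13 from 112660751 to 112738749, plus strand) encodes the lysosomal arginine sensor that reports to mTORC1. It was at 41.7, 35.4 and 35.0 CPM in the controls and 39.5, 40.9 and 42.9 CPM in the knockouts. Control A lay among the knockouts and the groups overlapped, with a change of 0.14 ± 0.12 (SE, interval -0.11 to 0.39, adjusted p = 0.861). Slc38a10 (ENSMUSG00000061306, chromosome 11 from 120103960 to 120151346, minus strand) encodes a less studied, mainly intracellular family member. Controls A, B and C had 110, 106 and 116 CPM and the knockouts had 119, 107 and 98.0 CPM. The letters disagreed, with knockout A above and knockout C below all controls, and the change was -0.041 ± 0.10 (SE, interval -0.26 to 0.18, adjusted p = 0.960).

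Slc1a4 (ENSMUSG00000020142, chromosome 11 from 20302180 to 20332713, minus strand) encodes ASCT1, an exchanger of serine, alanine, cysteine and threonine, and is the gene with the ATF4 core at its start. Its levels were 79.5, 70.3 and 78.7 CPM in the controls and 96.8, 83.7 and 77.4 CPM in the knockouts. Knockouts A and B lay above every control and knockout C lay among them. The change was 0.17 ± 0.11 (SE, interval -0.061 to 0.41, adjusted p = 0.808), and 0.079 without knockout A. Slc1a5 (ENSMUSG00000001918, chromosome 7 from 16781340 to 16798274, plus strand) encodes ASCT2, which also takes glutamine and is the exchanger usually named as the partner of LAT1 in dividing cells. It was low, at 5.23, 5.95 and 5.81 CPM in the controls and 3.19, 6.68 and 7.07 CPM in the knockouts. Knockout A was below and the other knockouts were above all controls, for a change of -0.0007 ± 0.27 (SE, interval -0.58 to 0.58, adjusted p = 1.0). These values rest on 31 to 72 reads per library, and the change was 0.28 without knockout A.

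Slc7a10 (ENSMUSG00000030495, chromosome 7 from 35186385 to 35201114, plus strand) encodes Asc-1, a sodium-independent exchanger of glycine, alanine and D- and L-serine that pairs with the heavy chain Slc3a2, as LAT1 does. It had the smallest p of the 10 genes. Controls A, B and C held 6.95, 6.82 and 8.15 CPM and the knockouts held 3.29, 6.86 and 5.61 CPM. Knockouts A and C were below every control, whereas knockout B matched control B (log2 difference 0.0086). The change was -0.47 ± 0.25 (SE, interval -1.01 to 0.066, adjusted p = 0.761). With the letter as a block it was -0.50 ± 0.23, with an interval from -0.96 to -0.048 that left out 0, but the gene did not pass over all genes (adjusted p = 0.349). Knockout A carried 32 reads of the gene, and without that library the change was -0.23. The same library also had the lowest count of Slc1a5. The knockouts varied by 34.5% (CV) and the controls by 10.03%, against 12.8% from counting alone. Exons of Slc7a10 overlap those of Lrp3 on the opposite strand, and the strand-specific counts held 364 reads of Slc7a10 where the counts that ignore strand held 39.

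**Figure D2:**
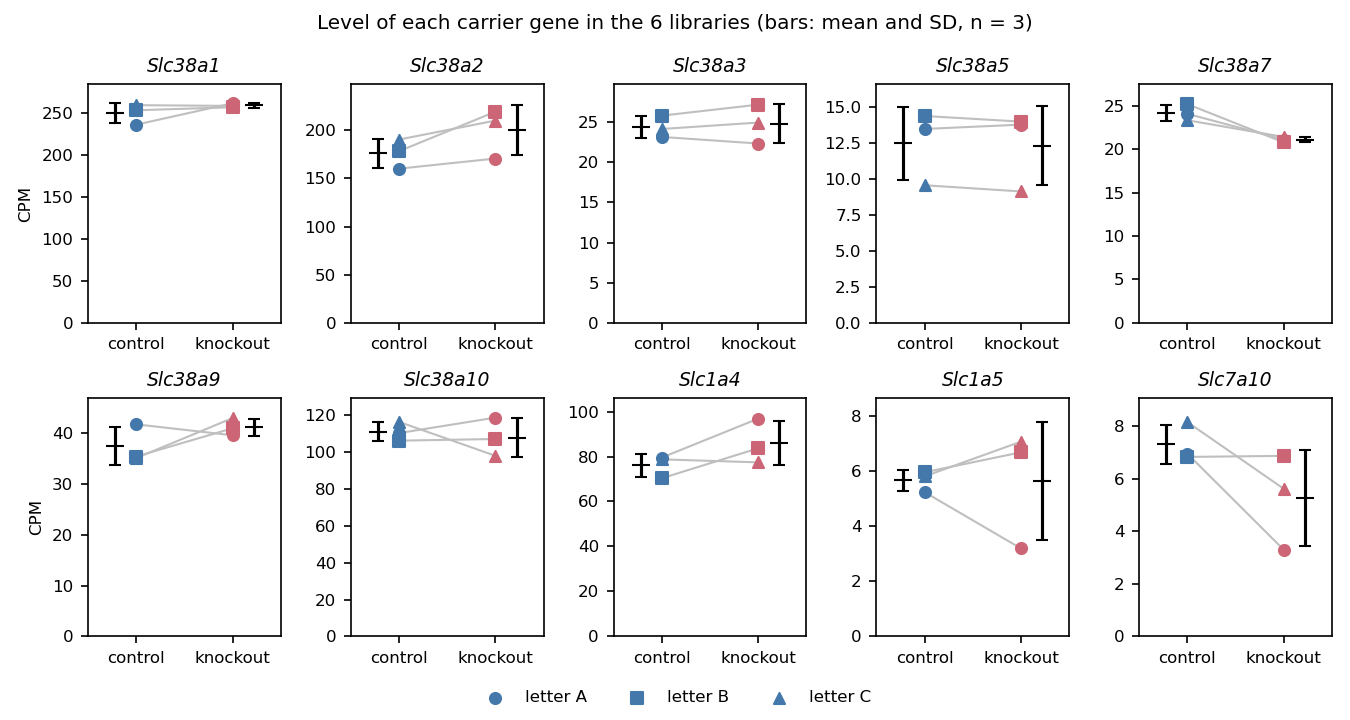
CPM of each carrier gene in the 3 control (blue) and 3 knockout (red) libraries, with grey lines joining libraries of the same letter and black bars for the mean and SD of each group. Groups overlap in 9 of 10 panels; in the panel of Slc38a7 all knockouts (20.8 to 21.4 CPM) lie below all controls (23.3 to 25.2 CPM).

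**Figure D3:**
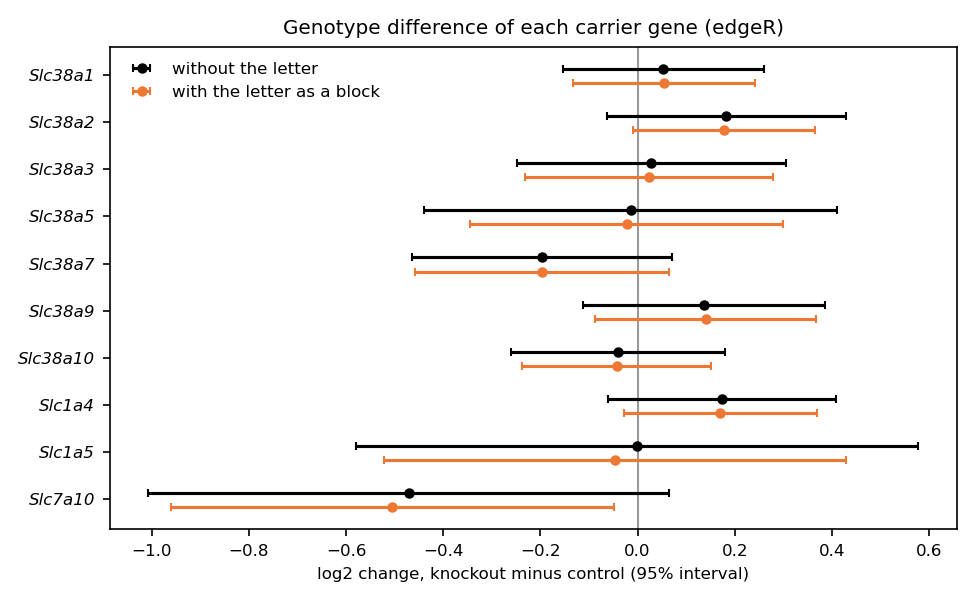
Log2 change of each carrier gene, knockout minus control, with 95% intervals from edgeR without (black) and with (orange) the letter as a block. Every black interval includes 0, and the orange interval of Slc7a10 (-0.96 to -0.048) is the only one that does not.

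Ratios of related carriers within a library do not depend on how libraries are scaled, and 3 were compared between genotypes. The per-length ratio of Slc38a2 to Slc38a1 was 1.32, 1.37 and 1.43 in the controls and 1.27, 1.66 and 1.58 in the knockouts. Knockouts B and C lay above and knockout A below all controls. The difference in mean log2 ratio was 0.12 (two-sided exact permutation test, p = 0.40, adjusted p = 0.900 over the 3 ratios). Slc1a5 to Slc1a4 was 0.0619, 0.0797 and 0.0694 in controls and 0.0310, 0.0751 and 0.0859 in knockouts, so ASCT1 mRNA outweighed ASCT2 mRNA in every library. That ratio differed by -0.26 on the log2 scale (exact permutation p = 0.900, adjusted p = 0.900), and by 0.20 without knockout A. Slc38a5 to Slc38a3 was 1.37, 1.31 and 0.934 in controls and 1.45, 1.21 and 0.863 in knockouts, a difference of -0.048 (exact permutation p = 0.800, adjusted p = 0.900). In that pair letter C was low in both genotypes. With 3 libraries against 3 the smallest p this test allows is 0.1.

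Another 4 SLC38 genes were followed as the rest of the family. Of these, Slc38a4 and Slc38a6 could be tested, and neither passed, although their groups did not overlap. Every knockout was below every control for Slc38a4 and above every control for Slc38a6, patterns that 6.28% and 5.89% of all genes tested showed. Slc38a4 was at 5.66 ± 1.12 CPM in controls and 3.58 ± 1.21 CPM in knockouts (SD, n = 3; log2 change -0.64 ± 0.28, SE, adjusted p = 0.700). Slc38a6 was at 6.79 ± 1.06 and 8.95 ± 1.42 CPM (0.39 ± 0.21, adjusted p = 0.741). Slc38a8 and Slc38a11 had 9 and 26 reads over all libraries and were not tested.

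Among 9 large neutral amino acid carriers and heavy chains, 7 were tested and none passed with or without the block. After Slc7a5 the smallest p belonged to Slc7a8, the light chain of LAT2, at 35.0 ± 6.02 CPM in controls and 27.8 ± 1.17 CPM in knockouts (-0.33 ± 0.14, SE, adjusted p = 0.656). Slc3a2, the heavy chain shared by LAT1 and Asc-1, was at 118 ± 23.2 and 89.1 ± 17.4 CPM (-0.41 ± 0.17, adjusted p = 0.685). Its light chain Slc7a10 had -0.47, and neither passed. The libraries behind these values differed. Slc3a2 stood at 134 CPM in control B and 73.9 CPM in knockout B, whereas Slc7a10 hardly differed in letter B (log2 difference 0.0086).

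Genes of the glutamate and glutamine cycle, which the system A and N carriers feed, included no call without the block among 18 tested (9 estimates above and 9 below 0, median -0.014). With the block 2 were called higher and 1 lower. Asns, which makes asparagine from glutamine, rose from 41.4 ± 2.82 to 74.5 ± 20.8 CPM (0.85 ± 0.17, SE, block adjusted p = 0.0215). Gad2, which makes GABA from glutamate, rose from 84.2 ± 22.8 to 120 ± 6.12 CPM (0.51 ± 0.16, block adjusted p = 0.0191). Slc17a7, the vesicular glutamate transporter of cortical excitatory neurons, fell from 88.3 ± 6.60 to 63.4 ± 9.52 CPM (-0.48 ± 0.12, block adjusted p = 0.0160). These 3 did not pass without the block (adjusted p from 0.179 to 0.539). Asns is also in the list of ATF4 targets below, Gad2 among the interneuron markers and Slc17a7 among the excitatory neuron markers. Glul, the glutamine synthetase of astrocytes, had a change of 0.0039 ± 0.11.

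Of 12 tested genes for serine, glycine and D-serine, the substrates of Slc1a4 and Slc7a10, none was called without the block and 2 were called higher with it. Shmt2, which converts serine to glycine in mitochondria, rose from 30.02 ± 4.76 to 50.4 ± 10.6 CPM (0.75 ± 0.16, SE, block adjusted p = 2.39e-04). Psat1, an enzyme of serine synthesis, rose from 44.6 ± 3.77 to 63.0 ± 6.90 CPM (0.50 ± 0.12, block adjusted p = 0.0111). Shmt2 and Psat1 are also in the list of ATF4 targets below. The serine racemase Srr, which makes D-serine, had a change of -0.096 ± 0.12. In the lysosomal amino acid sensing machinery that Slc38a9 reports to, 0 of 24 were called without the block. With it Sesn2, a leucine sensor, was called higher (1.55 ± 0.25 without the block, block adjusted p = 2.39e-04). Slc36a1, a lysosomal proton-coupled carrier of small amino acids, was called lower (-0.49 ± 0.12 without the block, block adjusted p = 0.0156). The median of that list was -0.029.

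ATF4 targets other than the carrier genes were mostly higher in knockouts. Of 31 tested, 29 had estimates above 0, against 50.2% of all genes tested, with a median of 0.44. Without the block 2 were called higher and with it 12, where 0.0335% and 0.845% of all genes were called in either direction. Named by smallest p, the values were 1.83 ± 0.18 (SE) for the cationic amino acid carrier Slc7a3 and 2.07 ± 0.26 for the translation repressor gene Eif4ebp1, which were called without the block. Sesn2, Chac1 (1.75 ± 0.29), the folate enzyme Mthfd2 (0.71 ± 0.13) and Atf5 (1.16 ± 0.18) were called with it. The calls of Asns, Shmt2, Psat1 and Sesn2 given with the lists above are among these 12 and are not separate results. The ATF4 targets among the carriers had 0.18 for Slc38a2, 0.17 for Slc1a4 and -0.0007 for Slc1a5, with upper interval bounds of 0.43, 0.41 and 0.58. Whether the carriers differ from that list as a group was not tested. The direction of the list was known from these libraries before the carriers were compared with it.

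Markers of cell types in which carriers are known to be expressed are given beside them, and their part in the values was not tested. Over all genes tested, 50.2% of estimates were above 0. Astrocyte markers, the cells of Slc38a3, had 4 estimates above and 10 below 0 (median -0.085), with summed levels of 1204 to 1376 CPM in controls and 1177 to 1297 CPM in knockouts and no call in either fit. Their smallest p values belonged to Fgfr3 (-0.27 ± 0.12, SE) and Aqp4 (-0.19 ± 0.15). Interneuron markers had 11 of 13 estimates above 0 (median 0.21, summed 1790 to 1905 and 1874 to 2228 CPM), with Gad2 called with the block. Endothelial markers had 11 of 13 above 0 (median 0.17, summed 253 to 292 and 300 to 306 CPM) and no call, with Tie1 at 0.82 ± 0.34 and Slco1c1 at 0.19 ± 0.11. Excitatory neuron markers had 8 of 13 below 0. Nrgn, a calmodulin-binding neuronal protein, was called lower without the block (-0.69 ± 0.11, adjusted p = 0.0196). With the block 4 were called lower, including Emx1 (-1.05 ± 0.22 in the fit without it). Only the knockouts carry Cre under Emx1 control, and the part of that allele in the Emx1 value was not tested. Microglia markers had 11 of 12 above 0 (median 0.19, summed 150 to 182 and 180 to 222 CPM) and no call. Oligodendrocyte lineage markers had 8 of 10 below 0 (summed 316 to 373 and 282 to 311 CPM), no call, and Mog with no read in any library. Radial glia and progenitor markers had 10 of 12 above 0, mural cell markers 4 of 6, and red blood cell markers 0 of 5, all without a call. Choroid plexus and meningeal markers summed to 9.76 to 251 CPM in controls and 13.2 to 114 CPM in knockouts, with 4 of 6 above 0 and no call.

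**Figure D4:**
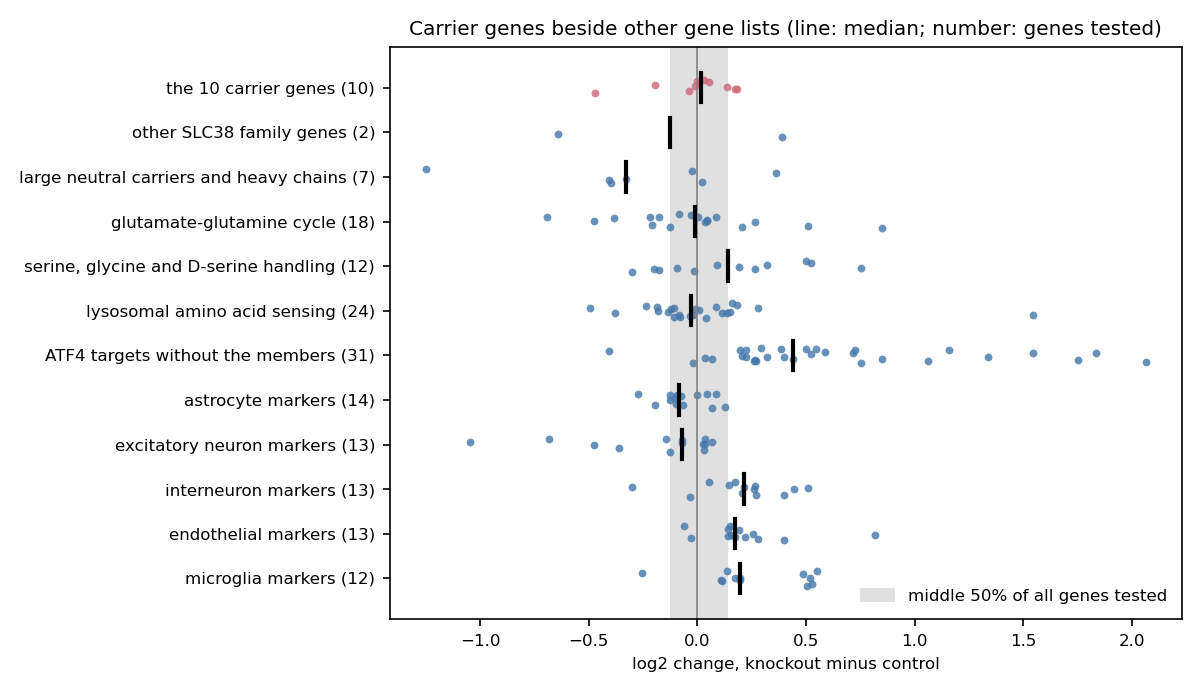
Log2 change, knockout minus control, of the 10 carrier genes (red) and of tested genes of other lists (blue), each point a gene and each black line a median, with the number tested in brackets. The grey band is the middle 50% of all genes tested, a spread of single genes and no scale for a median; the medians are 0.014 for the carriers and 0.44 for the ATF4 targets.

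The genes with the pattern most like that of Slc7a10 over the 6 libraries, out of 12772 compared by the root mean square difference of centred log2 CPM, were Il1rapl2 (0.098), Amacr (0.12) and Wdcp (0.13). Il1rapl2 was at 8.05, 7.32 and 8.35 CPM in the controls and at 4.01, 7.42 and 5.61 CPM in the knockouts. All 3 are expressed at low levels, from 3.24 to 6.79 CPM on average, where counting error is large. Each was lowest in knockout A, as Slc7a10 was, which follows from how they were picked and adds nothing about that library.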

How the data were processed

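Each library has 1 table of raw read counts per gene as the authors deposited it, laid out as STAR writes them. The submitters' processing notes list STAR 2.5.4, GRCm38 and mm10; which annotation was used is not given in the sources used here. The strand-specific column was used, which held 17.5 to 19.2 times as many reads as the opposite one. The multi-mapping line was 0, so reads shared between gene copies are missing. At most 12.9% of a carrier's 50-base transcript windows occur in another gene, in either orientation (Slc7a10, in Lrp3). Reads outside exons of the counted strand, which include reads on the opposite strand of an exon, were 22.5 to 27.9% of mapped reads.

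Symbols, coordinates and lengths came from GENCODE M21 on GRCm38 (52403 of 52550 identifiers found without version). The counts went into edgeR 4.0.16 (R 4.3.3), with filterByExpr (14913 genes), TMM scaling, robust quasi-likelihood F-test, two-sided, Benjamini-Hochberg adjustment over all genes. SEs and 95% intervals follow from F. The fit was tested on simulated data. DESeq2 1.42.0, other scaling factors, no filter, counts ignoring strand, and leaving out libraries were alternatives.

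Deviations from the group means correlated at 0.417, 0.342 and 0.211 between control and knockout of the same letter (0.393, 0.242 and 0.182 without the X and Y chromosomes), and at most -0.0310 between letters (0.0360 without X and Y). The letters were thus taken to pair the libraries, although no label explains them. The intervals and p-values given are from the fit without the letter unless the block is named, and the exact tests of ratios do not use the letter. Log2 changes and SEs of genes other than the carriers are from the fit without the letter, also where a block adjusted p stands beside them. The series' text calls the samples biological replicates.

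The carrier genes and lists were chosen with earlier results of these data known. All carriers are named; from other lists, genes past the threshold, or the 2 with the smallest p, at most 6, and at most 2 from cell type lists. Srr, Glul and Slc3a2 were named after their values were seen.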

Additional observations from a re-analysis of the deposited data

How the results depend on the processing

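No carrier gene passed in any of the 15 alternatives, in which the lowest adjusted p was 0.148 (Slc7a10 in the replicate block without letter B). Of 149 carrier estimates under them, 134 kept their sign, and those of Slc38a1, Slc38a2, Slc38a7, Slc38a9, Slc1a4 and Slc7a10 kept it throughout. Slc1a5 turned to 0.0016 with RLE factors, 0.037 with upper quartile factors, 0.00034 without the filter and 0.23 in the replicate block without letter A, and ran from -0.19 to 0.28 with 1 library left out. Slc38a5 turned to 0.023 with upper quartile factors and ran from -0.18 to 0.16, Slc38a3 ran from -0.041 to 0.098, and Slc38a10 turned to 0.059 in the replicate block without letter C and ran from -0.11 to 0.022. The count of calls over all genes was 126 with the replicate block, 228, 161 and 77 in it without letters A, B and C, 25 with DESeq2, 9 with upper quartile factors, 71 without the filter, and 1 to 9 with 1 library left out. The ratio of Slc1a5 to Slc1a4 ran from -0.54 to 0.20 with 1 library left out and that of Slc38a5 to Slc38a3 from -0.22 to 0.16. Places in the order of levels were kept by 4 genes with the longest coding transcript and by 7 with counts that ignore strand, where Slc7a10 fell to 0.336 CPM per kilobase and below the filter, so that it has no change there. Apart from the counts that ignore strand and the fits with fewer samples, the cause of these differences was not tested. Depth limits Slc1a5 and Slc7a10 most, with 31 to 80 reads per library.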
